A study of Mus musculus with 34 samples.

Results

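Fetal livers of mice without Rb1 and p107 were set against fetal livers of mice without p107 and p130. Both genotypes lacked p107 (gene Rbl1), so the comparison asked how loss of Rb1 differed from loss of p130 (gene Rbl2) where p107 was absent from both. The arrays were chosen by title: 5 arrays titled Rb1;p107 DKO and 6 titled p107;p130 DKO, 11 of the 34 arrays in the series, which covers 8 genotypes. They were compared over all 12723 genes tested. The other arrays are used beside them: 6 of the triple knockout (Rb1;p107;p130 TKO), 9 titled Rb1;p130 DKO, 2 Rb1 KO, 3 p130 KO, 1 p107 KO and 2 wild type. RNA came from whole liver that had been neither treated nor sorted, so a smaller share of a cell type and less RNA per cell cannot be told apart. The labels give embryonic day 14.5 for every array, while the series design names a span that begins earlier. Neither the strain nor the kind of Rb1, p107 and p130 allele (germline or conditional) is given in the sources used here, and the labels do not say whether arrays came from separate embryos. The p-values therefore reflect the spread among these arrays, which may be technical.

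The 3 pocket proteins RB1, p107 and p130 hold back cell division through the E2F transcription factors they bind. RB1 mainly holds the activating E2Fs, while p107 and p130 pair with E2F4 and, together with the MuvB proteins, form the DREAM complex that keeps cell-cycle genes silent in resting cells. Liver at this stage is the main site of blood formation, so red cell precursors make up much of it, beside hepatoblasts, macrophages and other blood cells. Rb1 is known for its part in the last steps of red cell maturation, when precursors leave the cycle.

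Values are MAS5 signals, the linear brightness of a probe set, and each gene is represented by its brightest probe set. Differences are on the log2(signal + 32) scale, Rb1;p107 DKO minus p107;p130 DKO, with the standard error after ±, from limma with 1 mean per genotype over the 34 arrays. A positive difference means a higher signal in livers that lack Rb1 and p107. Genes with an adjusted p under 0.05 (Benjamini-Hochberg, over all genes tested) are referred to as called. The added pseudocount understates the change of dim genes.

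The 11 arrays did not differ by genotype alone. The 34 arrays were sorted into 3 array groups by the ratio of signals between pairs of probe sets for 1 gene, a grouping inferred from the signals and not a recorded batch. Array 1 of the Rb1 and p107 double knockout was in array group 1 and its arrays 2 to 5 were in array group 2. Of the p107 and p130 double knockout, arrays 1 to 3 were in array group 1, arrays 5 and 6 in array group 2, and array 4 in array group 3. The first principal component of the 11 arrays held 32.5% of the variance, of which 98.4% lay between array groups and 26.7% between the 2 genotypes. Xist without Y-linked genes marked 3 of 5 arrays of the Rb1 and p107 double knockout and 1 of 6 arrays of the p107 and p130 double knockout. Array group and sex thus moved with genotype in part, and their part in the differences was tested only by refitting: calls lost with array group as a block or with a term for sex are named beside the gene, as are list members that gained a call with the block. Median signals ran from 83.8 to 97.2 on the Rb1 and p107 double knockout arrays and from 84.6 to 105.9 on the p107 and p130 double knockout arrays. Between the 11 arrays, r across genes was 0.964 to 0.983, where genes do not count as replicates.

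Rb1 signal was low on each array that should lack it. It was 860.4, 861, 883, 1125 and 958 on the 5 Rb1 and p107 double knockout arrays, against 5208 to 8035 with a median of 6332 on the 6 p107 and p130 double knockout arrays, a difference of -2.71 ± 0.18 (adjusted p = 4.19e-12). The groups did not overlap. Some signal remained there, and whether the brightest probe set lies outside the deleted part was not tested. The second Rb1 probe set was near background in both groups, at 59.5 ± 12.1 in livers without Rb1 and p107 and 23.8 ± 16.3 in livers without p107 and p130 (SD).

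Rbl2 signal, which reports p130, was 398, 279, 474, 423 and 246 in livers without Rb1 and p107, against 105 to 249 with a median of 203 in livers without p107 and p130. The groups met at their edges, since the lowest array without Rb1 and p107, at 246, lay just below the highest without p107 and p130, at 249. The difference was 0.88 ± 0.19 (adjusted p = 0.0215), and a second Rbl2 probe set gave 0.98. The call was lost with a term for sex (adjusted p = 0.0783) and without array 3 or 4 of the Rb1 and p107 double knockout or array 5 or 6 of the p107 and p130 double knockout (adjusted p = 0.0560 to 0.124), but with array group as a block the difference was 1.09 (adjusted p = 0.000852). Rbl1 signal, which reports p107, was near background in both genotypes, at 69.5 ± 18.4 in livers without Rb1 and p107, against 73.3 ± 26.9 in livers without p107 and p130 (SD, n = 5 and 6), and its difference of -0.03 ± 0.21 was not called (adjusted p = 0.967, 95% interval -0.45 to 0.39). Wild-type livers gave a Rbl1 signal of 1407 ± 266 (SD, n = 2).

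The 2 double knockouts differed in few genes, and most of those were higher where Rb1 was lost. Of 12723 genes, 66 were called (0.519%), 57 of them higher (0.448%) and 9 lower (0.0707%) where Rb1 and p107 were lost, while 1296 had an unadjusted p under 0.05. Only 13 of the calls were at least 2-fold, 9 higher and 4 lower, and the smallest called difference was 0.35. The arrays of the 2 groups did not overlap for 44 of the 66 called genes, against 185 of all genes tested (1.45%). The median difference of all genes was -0.06 and the median 95% interval of a gene reached 0.37 on either side, so differences below that size could mostly not be resolved. That interval is not adjusted for the number of genes, so a gene without a call may differ by more than 0.37. With array group as a block 82 genes were called, 63 higher and 19 lower, and 52 of the 66 were among them. With a term for sex 45 were called, of which 44 were among the 66. Without array 1 of the Rb1 and p107 double knockout, its only array in array group 1, 194 genes were called, 144 higher and 50 lower, with all 66 among them. Without array 2, 3, 4 or 5 of that genotype the counts were 39, 40, 42 and 37. Array weights led to 2050 calls (898 higher, 1152 lower) with the 66 among them. They gave array 1 of that genotype 0.587 and its arrays 2 to 5, in array group 2, 1.41 to 1.78. In the p107 and p130 double knockout, arrays 1 to 3, in array group 1, had 1.86 to 2.02, and arrays 4 to 6 had 0.748 to 0.787. The weights thus favoured array group 2 in the first genotype and array group 1 in the second. The part of array group in these calls was not tested. Within array group 2 (4 arrays against 2) 108 genes were called, 48 of them among the 66.

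**Figure D1:**
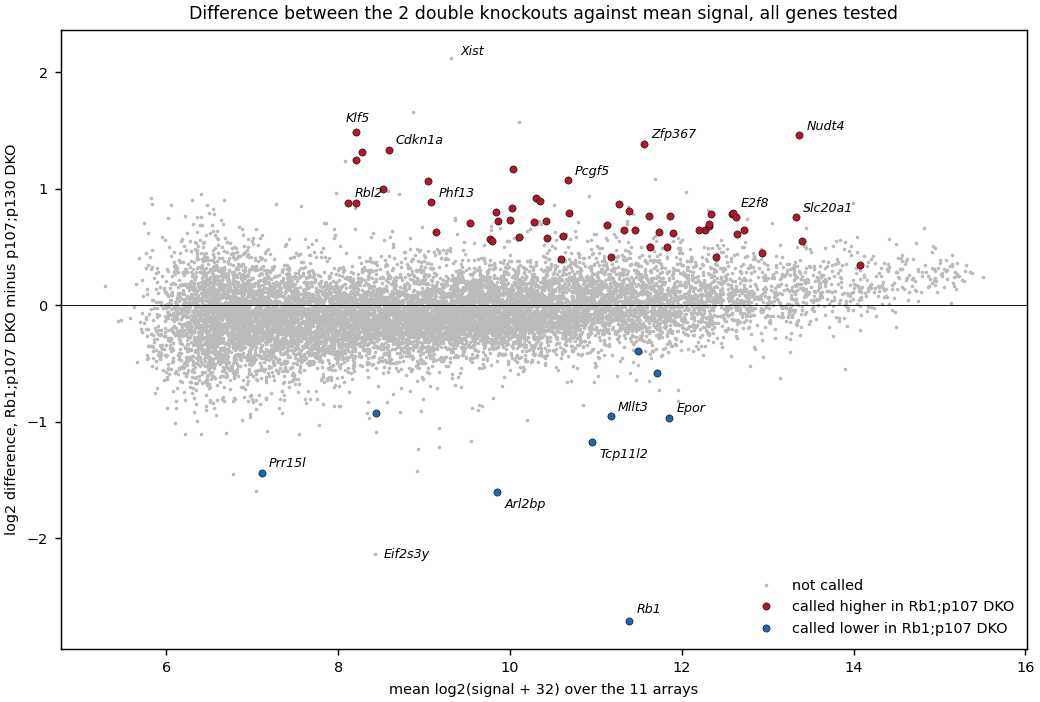
Each point is 1 of the 12723 genes tested, with its mean log2(signal + 32) over the 11 arrays on the x axis and the log2 difference, Rb1;p107 DKO minus p107;p130 DKO, on the y axis. The 57 genes called higher are red, the 9 called lower are blue, and Rb1 at -2.71 is the largest fall.

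Cell-cycle genes of the E2F class stood among the called rises, but few of them passed the test. Of 38 S-phase and E2F target genes tested, 4 were called higher (Zfp367, E2f8, E2f1 and Slbp) and 0 lower, against 0.448% and 0.0707% of all genes. Positive differences numbered 32 of 38, beside 4971 of all 12723. An unadjusted p under 0.05 was found for 19 of the 38, beside 1296 of all 12723. The list median was 0.25, or 0.15 with array group as a block, against -0.06 over all genes. Zfp367, a zinc-finger transcription factor gene, had the largest difference of the list. Its signal was 3515, 6736, 5335, 5661 and 4759.8 in livers without Rb1 and p107, against 1643 to 2344 with a median of 1915 in livers without p107 and p130. Each of the first 5 arrays lay above all 6 of the others. The difference was 1.39 ± 0.18, or 2.62-fold (adjusted p = 3.64e-05), and a second, dimmer probe set gave 0.71.

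The promoters of Zfp367 and of 3 other called rises held letters of the E2F type, and their matching stretches are printed because Zfp367 was the E2F-class gene with the largest difference. The stretches come from RefSeq windows of GRCm38.p6, 250 bases before to 50 bases after each gene's start, written 5′ to 3′ on the gene's strand. Capitals mark a match to TTTCCCGC, TTTGGCGC, TTTCGCGC or TTTGCCGC on either strand, with up to 20 bases kept on each side. The table holds a pair of starts for Zfp367. Its first stretch is at chr13:64153177-64153238 (minus strand) and its second stretch at chr13:64152436-64152483 (minus strand). The Faf1 stretch is at chr4:109676464-109676511 (plus strand), the Gpatch8 stretch at chr11:102556109-102556152 (minus strand) and the Pgp stretch at chr17:24470314-24470361 (plus strand).
Zfp367 first start: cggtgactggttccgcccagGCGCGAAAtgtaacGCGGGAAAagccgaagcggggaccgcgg
Zfp367 second start: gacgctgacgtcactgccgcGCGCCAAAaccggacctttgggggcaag
Faf1: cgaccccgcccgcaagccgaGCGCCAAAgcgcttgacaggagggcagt
Gpatch8: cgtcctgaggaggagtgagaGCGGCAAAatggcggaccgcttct
Pgp: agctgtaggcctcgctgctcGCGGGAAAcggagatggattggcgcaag

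Zfp367 had 3 such matches and the other genes 1 each. Faf1 encodes a FAS-associated factor, Gpatch8 a G-patch protein and Pgp phosphoglycolate phosphatase, and their differences were 0.63 ± 0.14, 0.40 ± 0.10 and 0.76 ± 0.17. All 3 calls were lost with array group as a block, at adjusted p = 0.0539 for Faf1, adjusted p = 0.0617 for Gpatch8 and adjusted p = 0.0944 for Pgp, and that of Gpatch8 also with a term for sex (adjusted p = 0.0503). Of the called rises with a promoter in the table, 4 of 49 (8.16%) held an E2F-type match, against 479 of 10283 genes tested (4.66%) and 0 of 7 called falls. A second motif searched, the CHR letters TTTGAA or TTCGAA that MuvB complexes are known to use, was in 8 of 49 called rises (16.3%) and in 1699 of 10283 genes tested (16.5%). The E2f8, E2f1 and Slbp windows held no match to the 4 E2F-type words, which says only that these letters are not in these windows.

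E2f8 encodes an atypical E2F that represses other E2F targets. Its signal was 5560.2, 9927, 9113, 9119.6 and 8902 in livers without Rb1 and p107, against 3956 to 6107 with a median of 4667 in livers without p107 and p130. Array 1 without Rb1 and p107 lay within the other range, and arrays 2 to 5 lay above it. The difference was 0.80 ± 0.16 (adjusted p = 0.00552), and 0.59 with array group as a block, but with the mean of all E2f8 probe sets it was 0.60 and not called (adjusted p = 0.181). Of the other called members, E2f1, an activating E2F, differed by 0.58 ± 0.13 without overlap of the groups (adjusted p = 0.0215), and Slbp, which binds histone mRNA, by 0.35 ± 0.08 (adjusted p = 0.0452). Slbp was not called with array group as a block (adjusted p = 0.0882), nor with a term for sex (adjusted p = 0.110). E2f7, the partner of E2f8, had a difference of 0.56 ± 0.15 without a call (adjusted p = 0.0767) and was called with the block, at 0.39 (adjusted p = 0.0278). Ccne2, a cyclin that starts S phase, was at 1.08 ± 0.37 without a call (adjusted p = 0.256). The replication helicase genes Mcm2 to Mcm7 ran from -0.01 to 0.40 and none was called.

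Mitotic genes lay mostly above 0, and none passed the test. Of 30 G2/M genes, 27 had positive differences and 0 were called in either direction by limma, while 12 had an unadjusted p under 0.05. Over all 12723 genes 4971 differences were positive and 1296 had such a p. The list median of 0.29 was 0.13 with array group as a block. Ccna2, the S-phase and G2 cyclin A2 gene, had the smallest p of the list. Its signal was 14135, 18077, 15527, 17893 and 17959 where Rb1 and p107 were lost, against 11087 to 14012 with a median of 12711 where p107 and p130 were lost. The groups did not overlap, with a difference of 0.40 ± 0.10 (adjusted p = 0.0785). Of 13 genes of the MuvB core and its partners, 0 were called and 3 had an unadjusted p under 0.05. Their median was 0.09, and below 0 without array 4 of either genotype (-0.02 at the lowest) or with all probe sets averaged. Rbbp4, a histone-binding subunit of MuvB, had the smallest p there (0.57 ± 0.16, adjusted p = 0.116). Its signal was 19907, 31133, 29559.8, 28698 and 27303 on arrays 1 to 5 without Rb1 and p107, of which only array 1 is outside array group 2. It was 15781 to 16827 on the 4 arrays without p107 and p130 outside array group 2, and 22679.9 and 22823 on the 2 arrays inside it.

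Of 11 CDK inhibitor and G1 regulator genes, 2 inhibitors were called higher in livers without Rb1 and p107 and 0 genes lower, against 0.448% and 0.0707% of all genes (list median 0.07). Cdkn1a, which encodes the inhibitor p21, had a signal of 565, 526, 585, 724 and 649.9 in livers without Rb1 and p107, against 129.5 to 276 with a median of 229 in livers without p107 and p130. The groups stood well apart. The difference was 1.34 ± 0.20, 2.53-fold (adjusted p = 0.000203), and 1.22 with array group as a block. A second Cdkn1a probe set gave 1.69. Cdkn2c, the gene of the CDK4 and CDK6 inhibitor p18, was at 3042, 4804, 4163, 4785 and 4345 in livers without Rb1 and p107, against 1983 to 3175 with a median of 2377 in livers without p107 and p130. The groups overlapped through array 1 without Rb1 and p107. Its difference was 0.77 ± 0.14 (adjusted p = 0.00226). Among the members not called, Cdkn2d differed by 0.43 ± 0.15, Cdkn1b by 0.32 ± 0.19 and Ccnd1, the cyclin D1 gene, by -0.39 ± 0.23.

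Other p53 target genes moved in both directions. Of 14 tested, 2 were called higher (Cdkn1a and Trp53inp1), 1 lower (Gadd45a), against 0.448% and 0.0707% of all genes, and the list median was -0.01 (0.08 with the block). Trp53inp1, a p53-induced gene of autophagy, had signals of 401, 824, 839, 938 and 945 in livers without Rb1 and p107, against 244 to 426 with a median of 387 in livers without p107 and p130. Array 1 fell inside the other range while arrays 2 to 5 lay above it. The difference of 1.07 ± 0.25 (adjusted p = 0.0344) was no longer called with the array group block (adjusted p = 0.165), with a term for sex (adjusted p = 0.126) or without array 2, 3, 4 or 5 of the Rb1 and p107 double knockout or array 1, 2, 4 or 5 of the p107 and p130 double knockout (adjusted p = 0.0501 to 0.150). Gadd45a, a growth arrest gene, was at 2955, 2690.2, 2129.8, 2813 and 2809.7 in livers without Rb1 and p107, against 3527 to 5012 with a median of 3788 in livers without p107 and p130, without overlap. The call of its difference of -0.58 ± 0.14 (adjusted p = 0.0344) was lost with a term for sex and without array 2, 3, 4 or 5 of the Rb1 and p107 double knockout or array 1, 2, 3 or 6 of the p107 and p130 double knockout (adjusted p = 0.0536 to 0.197). Bbc3, the gene of the cell-death protein PUMA, gave 0.96 ± 0.34 and Mdm2, whose protein degrades p53, gave -0.18 ± 0.18, neither called. With array group as a block Bbc3 was called, at 1.32 (adjusted p = 0.000260).

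Immediate-early and stress genes had 4 of 15 members called higher and 0 lower, against 0.448% and 0.0707% of all genes. The list median was 0.40, or 0.46 with array group as a block, where 7 were called higher. The summed signal of the list ran from 22983 to 34169 in livers without Rb1 and p107 and from 14634 to 17895 in livers without p107 and p130, without overlap. That sum weighs bright members most, among them the called Dusp1 and Dnajb1, so it is not separate from their calls. Of the 15 members, 10 had positive differences, beside 4971 of all 12723 genes. Fos, which encodes a component of the AP-1 transcription factor, was at 346, 725, 577, 434 and 400.3 in livers without Rb1 and p107, against 124 to 223 with a median of 177 in livers without p107 and p130. All 5 arrays without Rb1 and p107 lay above the other 6. The difference was 1.32 ± 0.21 (adjusted p = 0.000595). Dusp1, a phosphatase that switches off MAP kinases, was at 6076, 8282, 6181, 7639.9 and 6960.5 in livers without Rb1 and p107, against 3449 to 4492 with a median of 4073 in livers without p107 and p130. These groups did not overlap either, and the difference was 0.79 ± 0.12 (adjusted p = 0.000215). Dnajb1, an HSP40 co-chaperone gene, differed by 0.79 ± 0.13 and Ddit3, the stress factor CHOP, by 0.63 ± 0.14. The Ddit3 call was lost with a term for sex (adjusted p = 0.0511). The largest differences of the list belonged to the HSP70 genes Hspa1a (1.66 ± 0.42, adjusted p = 0.0591) and Hspa1b (1.58 ± 0.63, adjusted p = 0.371), neither called. The 3 genes called beside these 4 with array group as a block were Hspa1a (1.96, adjusted p = 0.00473), Hspa1b (2.27, adjusted p = 0.0282) and Ier2 (0.54, adjusted p = 0.0208). The near-identical Hspa1a and Hspa1b can share probes, so their values may not be separate. Egr1 (-0.20 ± 0.20) and Jun (-0.30 ± 0.28), immediate-early transcription factor genes like Fos, were not called.

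**Figure D2:**
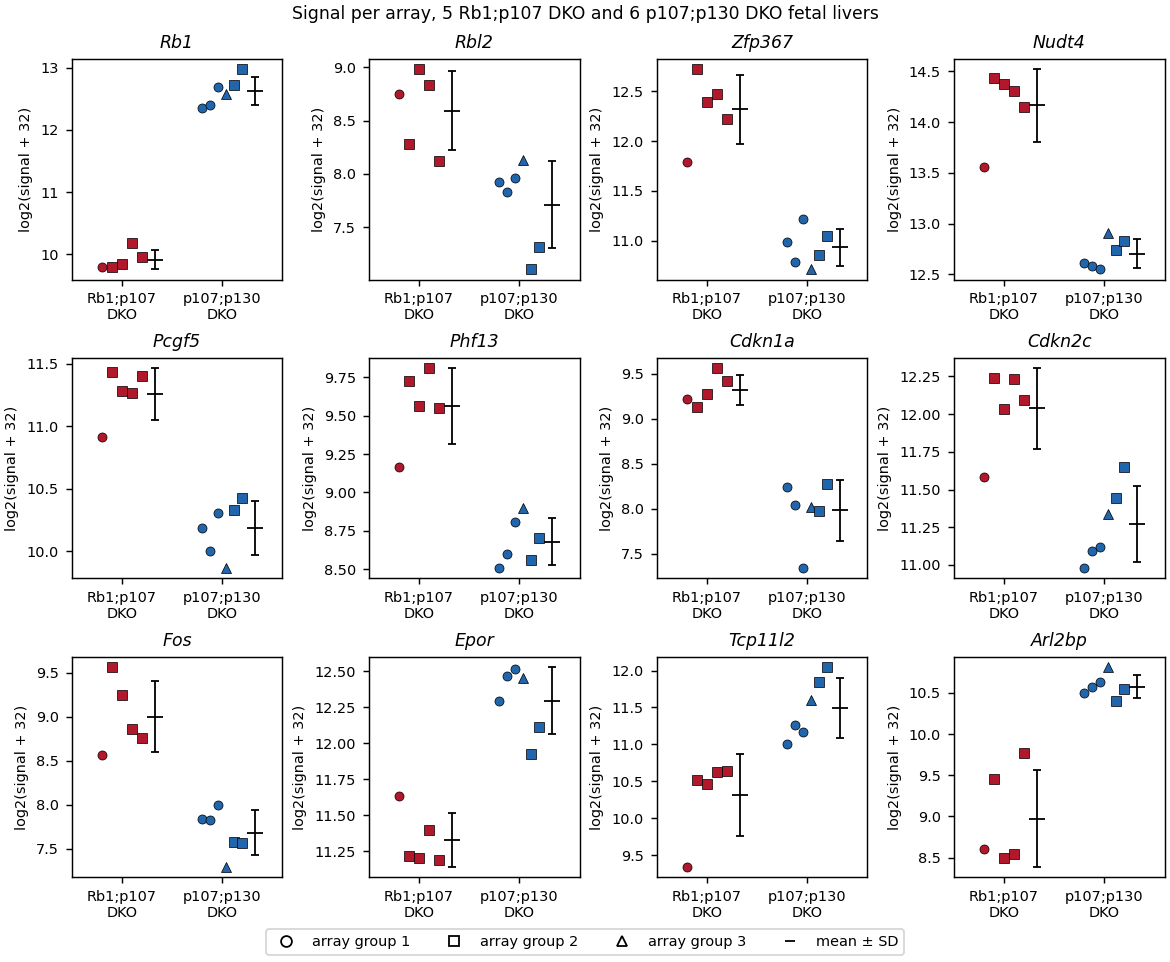
Signal of 12 genes on each of the 11 arrays, as log2(signal + 32) on y axes that do not start at 0, with Rb1;p107 DKO in red on the left, p107;p130 DKO in blue on the right, marker shape for the array group, and bars for the mean ± SD. For Zfp367, Nudt4, Pcgf5, Phf13, Cdkn1a and Fos the 5 red points lie above all 6 blue points, and for Rb1, Epor, Tcp11l2 and Arl2bp they lie below them.

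Klf5, a Krüppel-like transcription factor gene, had the largest called rise. Its signal was 331, 357, 743, 649 and 473 in livers without Rb1 and p107, against 111 to 185 with a median of 164 in livers without p107 and p130. The groups did not overlap, but the spread within the first was wide, and the difference of 1.48 ± 0.33 (adjusted p = 0.0237) was not called with a term for sex (adjusted p = 0.0829) or without array 3, 4 or 5 of the Rb1 and p107 double knockout or array 4 of the p107 and p130 double knockout (adjusted p = 0.0603 to 0.126). A second, dimmer Klf5 probe set gave 0.80. Klf10, a relative that TGF-beta signals induce, was at 1082, 2325, 1992, 1916 and 1788 in livers without Rb1 and p107, against 845 to 1036 with a median of 913 in livers without p107 and p130 without overlap (difference 0.92 ± 0.14, adjusted p = 0.000271).

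Pcgf5 and Phf13 were the 2 called members of 21 polycomb and chromatin upkeep genes, both higher (0.448% of all genes were), in a list with a median of -0.02. Sap30, a histone deacetylase complex subunit gene, was not called, but was with the block, at 0.51 (adjusted p = 0.00160). Pcgf5, a subunit of a variant polycomb repressive complex 1, had signals of 1899, 2740.3, 2455, 2436 and 2675 where Rb1 and p107 were lost, against 899 to 1345 with a median of 1183 where p107 and p130 were lost. Phf13, a reader of histone H3 lysine methylation, was at 542, 814, 726, 864 and 719 in livers without Rb1 and p107, against 331 to 445 with a median of 370.2 in livers without p107 and p130. In both genes all arrays without Rb1 and p107 exceeded all arrays without p107 and p130. The differences were 1.07 ± 0.14 for Pcgf5 (adjusted p = 3.64e-05) and 0.88 ± 0.12 for Phf13 (adjusted p = 3.64e-05). The second Pcgf5 probe set gave 0.38, and with the mean of all its probe sets in place of the brightest Pcgf5 was at 0.59 and not called (adjusted p = 0.0577). Ezh2, Suz12 and Eed, the core of polycomb repressive complex 2, gave 0.14 ± 0.10, 0.19 ± 0.13 and -0.03 ± 0.09, and the maintenance methyltransferase gene Dnmt1 gave 0.43 ± 0.19, none called.

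Nudt4, which encodes a phosphatase of diphosphoinositol polyphosphates and nucleotides, combined a large difference with a high level. Its signal was 11991, 22165, 21217, 20273 and 18088 in livers without Rb1 and p107, against 5955 to 7644 with a median of 6516 in the p107 and p130 double knockout. The lowest array without Rb1 and p107 still lay far above the highest of the others. The difference was 1.46 ± 0.18, 2.75-fold (adjusted p = 1.46e-05), and 1.22 with array group as a block, while a second probe set gave 0.81.

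Otud1, a deubiquitinase gene, was at 229, 568, 613, 485 and 433 in livers without Rb1 and p107, against 132 to 242 with a median of 163 in livers without p107 and p130. Array 1 lay inside the other range, and the difference was 1.25 ± 0.22 (adjusted p = 0.00127). Spata13 was at 1143, 2195, 1924, 1942 and 2002 in livers without Rb1 and p107, against 736 to 1203 with a median of 984 in livers without p107 and p130, with the same array inside. Its difference of 0.89 ± 0.20 (adjusted p = 0.0260) was not called without array 2, 3, 4 or 5 of the Rb1 and p107 double knockout or array 1, 2 or 3 of the p107 and p130 double knockout (adjusted p = 0.0616 to 0.129). Mxi1, a MYC antagonist gene and the 1 called member of 18 hypoxia-response genes (0.448% of all genes were called higher), was at 3678, 5614, 5082, 5100.3 and 5409.9 in livers without Rb1 and p107. On the arrays without p107 and p130 it was 2225 to 3506 with a median of 2907, below all of these, and the difference was 0.77 ± 0.14 (adjusted p = 0.00376). Kdm3a, a histone demethylase gene of that list, was not called, but was with array group as a block, at 0.40 (adjusted p = 0.0297). The hypoxia list had a median of 0.13, with Vegfa at -0.16 and Pgk1 at 0.12.

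No role is given here for the other large rises, Gm45914 and 2500002B13Rik. Gm45914 was at 472, 599, 550.0, 478 and 432 in livers without Rb1 and p107, against 192 to 259 with a median of 248 in livers without p107 and p130, without overlap and with little spread (difference 1.00 ± 0.14, adjusted p = 5.30e-05). 2500002B13Rik was at 1122, 2289, 1672, 1644 and 1480.2 in livers without Rb1 and p107, against 421 to 1065 with a median of 772 in livers without p107 and p130, also without overlap. Its difference of 1.17 ± 0.26 (adjusted p = 0.0237) was not called with the array group block (adjusted p = 0.136) or without array 2, 3, 4 or 5 of the Rb1 and p107 double knockout or array 1 or 3 of the p107 and p130 double knockout.

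The other called rises were smaller, were named after their values were seen, and are ordered only by what each gene is known for, with no list or test behind the order. They included the histone chaperone gene Asf1b (0.61 ± 0.13), the centriole gene Stil (0.73 ± 0.16), Mzt1 of the gamma-tubulin complex (0.42 ± 0.09) and Rfwd3, a ubiquitin ligase gene of stalled replication forks (0.68 ± 0.14). Next came Sirt1, a deacetylase gene (0.69 ± 0.16), Nr3c1, the glucocorticoid receptor gene (0.57 ± 0.13), Pbx3 (0.41 ± 0.10), Tcf19 (0.62 ± 0.14), Zfp91 (0.50 ± 0.12), Zbtb2 (0.71 ± 0.14), Jade3 (0.74 ± 0.15), Cggbp1 (0.70 ± 0.16), Qk (0.45 ± 0.10) and Larp1b (0.79 ± 0.15). Others were Plek2, known from red cell precursors (0.87 ± 0.15), Fhl1 (0.80 ± 0.16), Rap1a (0.55 ± 0.12), Pkn2 (0.71 ± 0.12) and the AKT phosphatase gene Phlpp2 (0.59 ± 0.11). Further rises were the phosphate transporter gene Slc20a1 (0.76 ± 0.12), the amino acid transporter subunit gene Slc3a2 (0.65 ± 0.15), the nuclear import gene Kpna1 (0.81 ± 0.14) and Mthfd2 of mitochondrial folate metabolism (0.65 ± 0.13). The remaining rises were Cdan1 (0.55 ± 0.12), Pdzk1ip1 (0.83 ± 0.18), Fam174b (0.88 ± 0.18), Plekhf2 (0.72 ± 0.14), Kcmf1 (0.65 ± 0.14), Tapbp (0.65 ± 0.16), Oser1 (0.64 ± 0.12) and Mid1ip1 (0.50 ± 0.10). Of these, the calls of Sirt1, Nr3c1, Tcf19, Zfp91, Slc3a2, Cdan1 and Tapbp were lost both with array group as a block and with a term for sex. Those of Pdzk1ip1 (adjusted p = 0.0539), Kcmf1 (adjusted p = 0.0575), Rap1a (adjusted p = 0.0575), Pbx3 (adjusted p = 0.0886), Qk (adjusted p = 0.0784) and Cggbp1 (adjusted p = 0.0829) were lost with a term for sex.

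Epor, which encodes the receptor for erythropoietin, a survival signal of red cell precursors, fell in livers without Rb1 and p107. Its signal was 3145, 2347, 2327, 2662 and 2308 on these arrays, against 3855 to 5829 with a median of 5285 in the p107 and p130 double knockout. All 5 arrays without Rb1 and p107 lay below the other 6. The difference was -0.97 ± 0.16, 1.95-fold lower (adjusted p = 0.000900), and -0.81 with array group as a block. Epor was the only called member of 34 erythroid maturation genes (0.0707% of all genes were called lower), 21 of the 34 differences were positive, and the list median was 0.12.

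Hemgn, which encodes a nuclear protein of blood cells, had a positive difference without a call (0.53 ± 0.13, adjusted p = 0.0573), as had the red cell membrane and skeleton genes Sptb (0.52 ± 0.17), Ank1 (0.50 ± 0.20) and Slc4a1 (0.35 ± 0.14). Xpo7 (-0.55 ± 0.16), Bpgm (-0.44 ± 0.15) and the ubiquitin-conjugating genes Ube2o (-0.59 ± 0.21) and Ube2h (-0.43 ± 0.18), which late red cell precursors use, had negative ones without a call. With array group as a block the list median was -0.02 and 4 members were called, all lower: Epor, Xpo7 (-0.81, adjusted p = 5.54e-05), Ube2o (-0.85, adjusted p = 0.0116) and Ube2h (-0.72, adjusted p = 0.00149). The 17 red cell transcription factor genes had 0 calls and a median of 0.18 (0.02 with the block), with Gata1 at 0.33 ± 0.12, Klf1 at 0.43 ± 0.15 and Lyl1, of the smallest p, at 0.39 ± 0.11 (adjusted p = 0.136). The 5 globin genes had 0 calls and a median of 0.30 (0.12 with the block), with Hba-a2, an alpha-globin gene, at 0.43 ± 0.19 (adjusted p = 0.436). The Hba-a2 signal was dim, at 207 ± 33 in livers without Rb1 and p107, against 148 ± 40 in livers without p107 and p130 (SD). The summed signal of the globin list was far higher, from 77838 to 106701 and from 67492 to 96725. Whether the Hba-a2 probe set reports the full alpha-globin level was not tested. The 21 heme synthesis and iron genes had 0 calls and a median of 0.09, and Hmox1, the heme-degrading oxygenase gene, had the smallest p of them (-0.90 ± 0.32, adjusted p = 0.294). At an unadjusted p under 0.05 stood 7 of 17 red cell transcription factor and 2 of 5 globin genes. So did 4 of 21 heme and iron and 19 of 34 erythroid maturation genes, beside 1296 of all 12723.

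Tcp11l2 fell as well. Its signal was 614, 1441, 1374, 1556 and 1562 in livers without Rb1 and p107, against 2031 to 4205 with a median of 2753 in livers without p107 and p130, without overlap. Array 1 stood below the other 4 of its genotype. The difference was -1.17 ± 0.22 (adjusted p = 0.00376) and -1.54 with array group as a block.

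Mllt3, the gene of a chromatin reader (AF9) that takes part in transcription elongation and in blood stem cell upkeep, was at 2047, 1480.2, 1504, 1440.4 and 1496 in livers without Rb1 and p107, against 2456 to 3552 with a median of 3301 in the p107 and p130 double knockout. No array without Rb1 and p107 reached the range of the others, and the difference was -0.95 ± 0.14 (adjusted p = 7.50e-05). Other Mllt3 probe sets gave -0.25 and -0.66. Prr15l, whose mean level was too low for the naming rule and which is named after its values were seen, had a difference of -1.44 ± 0.23 (adjusted p = 0.000382).

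The remaining called falls were less firm. Slc25a22, a mitochondrial glutamate carrier gene, was at 321, 203, 178, 210.0 and 174 in livers without Rb1 and p107, against 289 to 553 with a median of 480.2 in livers without p107 and p130, with array 1 inside the other range. Its difference of -0.92 ± 0.22 (adjusted p = 0.0314) was not called with the array group block (adjusted p = 0.0851), with a term for sex (adjusted p = 0.0837), or without array 2, 3, 4 or 5 of the Rb1 and p107 double knockout or array 1, 2, 3 or 4 of the p107 and p130 double knockout (adjusted p = 0.0764 to 0.142). Ube2f, a NEDD8-conjugating enzyme gene, was at 2552, 2365, 2563, 2375 and 2414 in livers without Rb1 and p107, against 2879 to 3803 with a median of 3249 in livers without p107 and p130. The groups did not overlap, and the difference was -0.39 ± 0.09 (adjusted p = 0.0291). That call was lost with a term for sex (adjusted p = 0.0997) and without array 2, 3, 4 or 5 of the Rb1 and p107 double knockout or array 2, 4, 5 or 6 of the p107 and p130 double knockout (adjusted p = 0.0540 to 0.113).

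Arl2bp, which encodes a partner of the small GTPase ARL2, had the largest called fall after Rb1. Its signal was 356, 672, 330.2, 343 and 838 on the Rb1 and p107 double knockout arrays, against 1324 to 1769.9 with a median of 1478 on the p107 and p130 double knockout arrays. The first group split, with arrays 2 and 5 above arrays 1, 3 and 4, and none reached the other range. The difference was -1.60 ± 0.18 (adjusted p = 1.52e-06), a second probe set also gave -1.60, and within array group 2 (4 arrays against 2) it was -1.41 and not called (adjusted p = 0.0862). Across the series its mean signal was 1324 ± 218 in the triple knockout (SD, n = 6), 1730.1 ± 288 in livers without Rb1 and p130 (n = 9), 1094 ± 271 in Rb1 KO (n = 2), 1492 ± 203 in p130 KO (n = 3), 222 on the p107 KO array and 978 ± 21 in wild type (n = 2). Its level was lowest on the p107 KO array, next lowest in livers without Rb1 and p107, and highest in livers without Rb1 and p130.

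Arl2bp lies 3.57 Mb from Rbl2. Of 58 genes tested within 5 Mb of Rbl2, 2 were called (3.45%, against 0.519% of all genes): Arl2bp, lower, and Siah1a, a ubiquitin ligase gene 4.36 Mb away, higher. Siah1a was at 1613, 2289, 1599.8, 2338 and 1934 in livers without Rb1 and p107, against 1177 to 1567 with a median of 1225 in livers without p107 and p130, without overlap (difference 0.60 ± 0.11, adjusted p = 0.00394). Within array group 2 it was 0.71 and not called (adjusted p = 0.0697). Of 46 genes within 5 Mb of Rb1, 0 were called by limma, while 5 had an unadjusted p under 0.05 (1296 of all 12723 had). Near Rbl1, which both genotypes lack, 1 of 106 was called (0.943%), and that gene was E2f1. The part of a gene's position near a targeted locus in these values was not tested.

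Markers of other cell types gave no calls by limma. Hepatocyte and hepatoblast genes (0 of 22 called, median 0.13), neutrophil genes (0 of 16, 0.13), megakaryocyte genes (0 of 15, -0.03), stem and progenitor cell genes (0 of 14, -0.08), lymphoid genes (0 of 6, 0.03), endothelial genes (0 of 14, 0.01) and stellate and mesenchymal genes (0 of 20, -0.02) had from 0 to 3 members each at an unadjusted p under 0.05. Over all 12723 genes 1296 had such a p. Macrophage genes had the lowest median, -0.21, with 3 of 16 differences positive, 0 called and 2 at an unadjusted p under 0.05. Their summed signal ran from 13816 to 21508 in livers without Rb1 and p107 and from 15336 to 21719 in livers without p107 and p130, so the groups overlapped. C1qb, a complement gene of resident macrophages, was at 1117 ± 145 in livers without Rb1 and p107, against 1563 ± 363 in livers without p107 and p130 (SD, n = 5 and 6, adjusted p = 0.297). Alb, the albumin gene and a check of the labelled tissue, was bright in both, at 40853 ± 4484 in livers without Rb1 and p107, against 32248 ± 3712 in livers without p107 and p130 (adjusted p = 0.316). Interferon-response genes (0 of 13, median 0.01), mitochondrial respiration genes (0 of 22, -0.01) and BCL2 family genes (0 of 13, -0.02, with Bbc3 called with the block) had no calls either, with 2, 2 and 4 members at an unadjusted p under 0.05. The members with the smallest p of their lists were Chil3 (0.42 ± 0.36) for neutrophils, Fli1 (-0.43 ± 0.15) for megakaryocytes, Erg (-0.56 ± 0.19) for stem cells, Il7r (-0.21 ± 0.22) for lymphoid cells, Esam (0.22 ± 0.17) for endothelium, Reln (0.32 ± 0.14) for stellate cells, Ifih1 (0.58 ± 0.20) for interferon response, Cox6c (-0.19 ± 0.09) for respiration and Bcl2l11 (0.32 ± 0.11) for the BCL2 family. Of 4 sex-linked genes, 0 were called and 0 had an unadjusted p under 0.05.

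**Figure D3:**
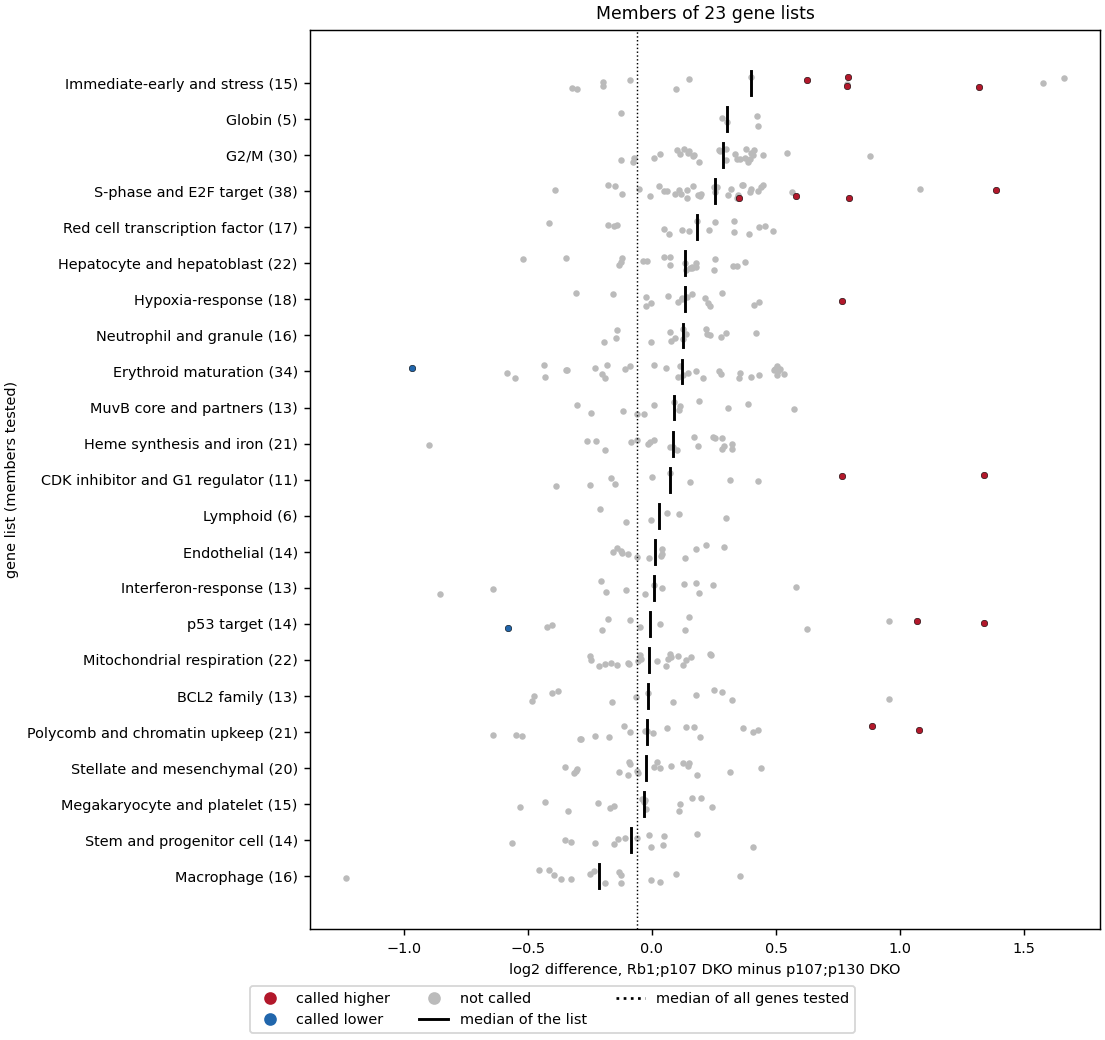
Log2 difference, Rb1;p107 DKO minus p107;p130 DKO, of each tested member of 23 gene lists, with called genes coloured, a black bar at each list's median and a dotted line at the median of all genes (-0.06). Immediate-early and stress genes have the highest median (0.40) and macrophage genes the lowest (-0.21).

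Loss of Rb1 was also followed on arrays outside the 2 double knockouts. Rb1 KO livers (2 arrays) were set against p130 KO livers (3 arrays), both with p107 present, and Rb1 and p130 double knockout livers (9 arrays) against the same 3 p130 KO arrays. In the second pair p130 was absent from both, so of the 3 pocket proteins only Rb1 differed. These 2 comparisons share the p130 KO arrays, and neither takes a mean from the 11 arrays, although all 34 arrays shared 1 estimate of each gene's spread. Apart from Rb1 and Rbl2, 64 genes had been called. Of these, 62 (96.9%) had the same sign in Rb1 KO minus p130 KO, where 52.5% of all genes tested had the same sign as between the 2 double knockouts. In Rb1;p130 DKO minus p130 KO it was 61 of 64 (95.3%), where 55.1% of all genes did.

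The median sizes were smaller on those arrays. The 56 called rises had medians of 0.45 and 0.45 there and 0.72 between the 2 double knockouts, where they were chosen, and the 8 called falls -0.53, -0.58 and -0.96. The S-phase and E2F list did not move as a whole in Rb1 KO minus p130 KO. Its median was -0.014 there, beside -0.012 for all genes, while it was 0.25 between the 2 double knockouts. No such list median was taken in Rb1;p130 DKO minus p130 KO. Zfp367, the member with the largest difference between the 2 double knockouts, had differences of 1.13 ± 0.28 in Rb1 KO minus p130 KO and 0.90 ± 0.20 in Rb1;p130 DKO minus p130 KO. Nudt4 had 0.84 ± 0.28 and 0.87 ± 0.20, Cdkn1a 0.98 ± 0.30 and 1.00 ± 0.22, and Fos 1.24 ± 0.32 and 1.02 ± 0.24. Tcp11l2, at -1.55 ± 0.33 and -1.41 ± 0.24, stood beside -1.17 ± 0.22 between the 2 double knockouts. E2f8 had 0.18 ± 0.23 and 0.36 ± 0.17, and Epor -0.61 ± 0.24 and -0.89 ± 0.18. The genes of opposite sign, named after their values were seen, were Slc25a22 (0.15 ± 0.32) and Cdan1 (-0.08 ± 0.19) in the first comparison and Slc25a22 (0.03 ± 0.24), Cdan1 (-0.02 ± 0.14) and Arl2bp (0.20 ± 0.20) in the second.

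Few of these differences passed a test of their own. In Rb1 KO minus p130 KO, 3 genes of 12723 were called (0.0236%), with 554 at an unadjusted p under 0.05, and the 3 were Rb1, Prr15l (-2.15 ± 0.34, adjusted p = 0.00274) and Phf13 (0.98 ± 0.18, adjusted p = 0.0223). In Rb1;p130 DKO minus p130 KO, 15 genes were called (0.118%), with 674 at an unadjusted p under 0.05. Besides Rb1, 10 of the 15 were among the 64 with the same sign: Phf13 (1.12 ± 0.13, adjusted p = 4.82e-06), Klf10, Fhl1, Siah1a, Pcgf5, Phlpp2, Epor, Mllt3, Tcp11l2 and Prr15l. Both Rb1 KO arrays carried Y-linked genes and all 3 p130 KO arrays carried Xist, so sex ran the other way from the 11 arrays. Of the Rb1;p130 DKO arrays, some carried Xist and some Y-linked genes, so sex differed in part in that comparison too. Array group 1 held both Rb1 KO arrays and 2 of the 3 p130 KO arrays.

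**Figure D4:**
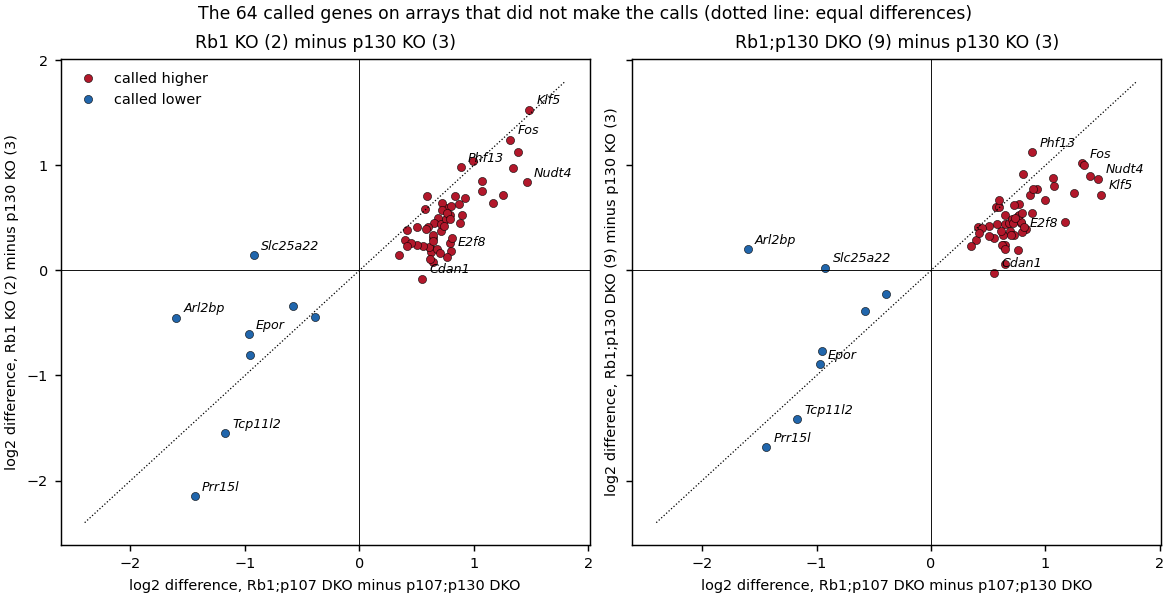
Each point is 1 of the 64 called genes, with its log2 difference between the 2 double knockouts on both x axes and, on the y axes, the log2 difference in Rb1 KO (2 arrays) minus p130 KO (3 arrays) on the left and in Rb1;p130 DKO (9 arrays) minus p130 KO on the right. The dotted line marks equal differences, and 62 and 61 of the 64 points lie on the same side of 0 on both axes.

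Whether the difference itself depended on p107 was tested as an interaction, the difference between the 2 double knockouts minus that between Rb1 KO and p130 KO. No gene was called by limma (0 of 12723, 0%), 448 had an unadjusted p under 0.05, and the smallest adjusted p was 0.950. A p that misses the threshold does not show that the 2 differences were alike, and Rb1 KO had only 2 arrays. The called genes were chosen by a difference that enters the interaction, so their unadjusted interaction p are descriptions and no test of dependence on p107. Among the called genes, Arl2bp had the smallest unadjusted interaction p (0.00113), with an interaction of -1.15 ± 0.32. Slc25a22 had -1.07 ± 0.39 (unadjusted p = 0.00962) and E2f8 0.62 ± 0.28 (unadjusted p = 0.0355). Klf5 had -0.04 ± 0.60, Fos 0.08 ± 0.39 and Phf13 -0.09 ± 0.22, so for Klf5 the interval was wide.

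Most of the 64 genes lay nearer to the Rb1 and p107 double knockout in the triple knockout, and nearer to the p107 and p130 double knockout in wild type. In the triple knockout, which lacks all 3 pocket proteins, the mean level of 60 of the 64 lay nearer to the Rb1 and p107 double knockout than to the p107 and p130 double knockout, against 44.2% of all genes tested. The 4 exceptions, named after their values were seen, were Arl2bp, Kcmf1, Tapbp and Slc25a22. The counts nearer to the Rb1 and p107 double knockout were 52 in Rb1;p130 DKO (38.9% of all genes), 41 in Rb1 KO (41.9%), 9 on the p107 KO array (50.2%), 3 in p130 KO (35.7%) and 1 in wild type (43.7%). The single gene in wild type was Pkn2, and those in p130 KO were Ddit3, Pdzk1ip1 and Cdan1. On a scale where the p107 and p130 double knockout is 0 and the Rb1 and p107 double knockout is 1, the median gene stood at 0.80 in the triple knockout, 0.70 in Rb1;p130 DKO and 0.67 in Rb1 KO. It stood at 0.003 in p130 KO, 0.17 on the p107 KO array and 0.11 in wild type. The 2 ends of that scale are the groups that chose the genes, so these positions are descriptions without a test.

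Zfp367 and Epor show how single genes varied. Zfp367 signal averaged 4464 ± 932 in the triple knockout (SD, n = 6), 3905 ± 916 in livers without Rb1 and p130 (n = 9) and 4469.9 ± 587 in Rb1 KO (n = 2). It averaged 2034 ± 344 in p130 KO (n = 3) and 2140.4 ± 482 in wild type (n = 2), with 1867 on the p107 KO array. The 4 genotypes without Rb1 thus had higher means than the 4 with it. Epor averaged 2687 ± 669 in the triple knockout, 3569 ± 741 in livers without Rb1 and p130 and 4278 ± 519.7 in Rb1 KO. It averaged 6609 ± 1375 in p130 KO and 5845 ± 1680.2 in wild type, with 4033 on the p107 KO array, which is below the Rb1 KO mean although Rb1 is present there. Its level in Rb1 KO was within the range of the p107 and p130 double knockout arrays.

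**Figure D5:**
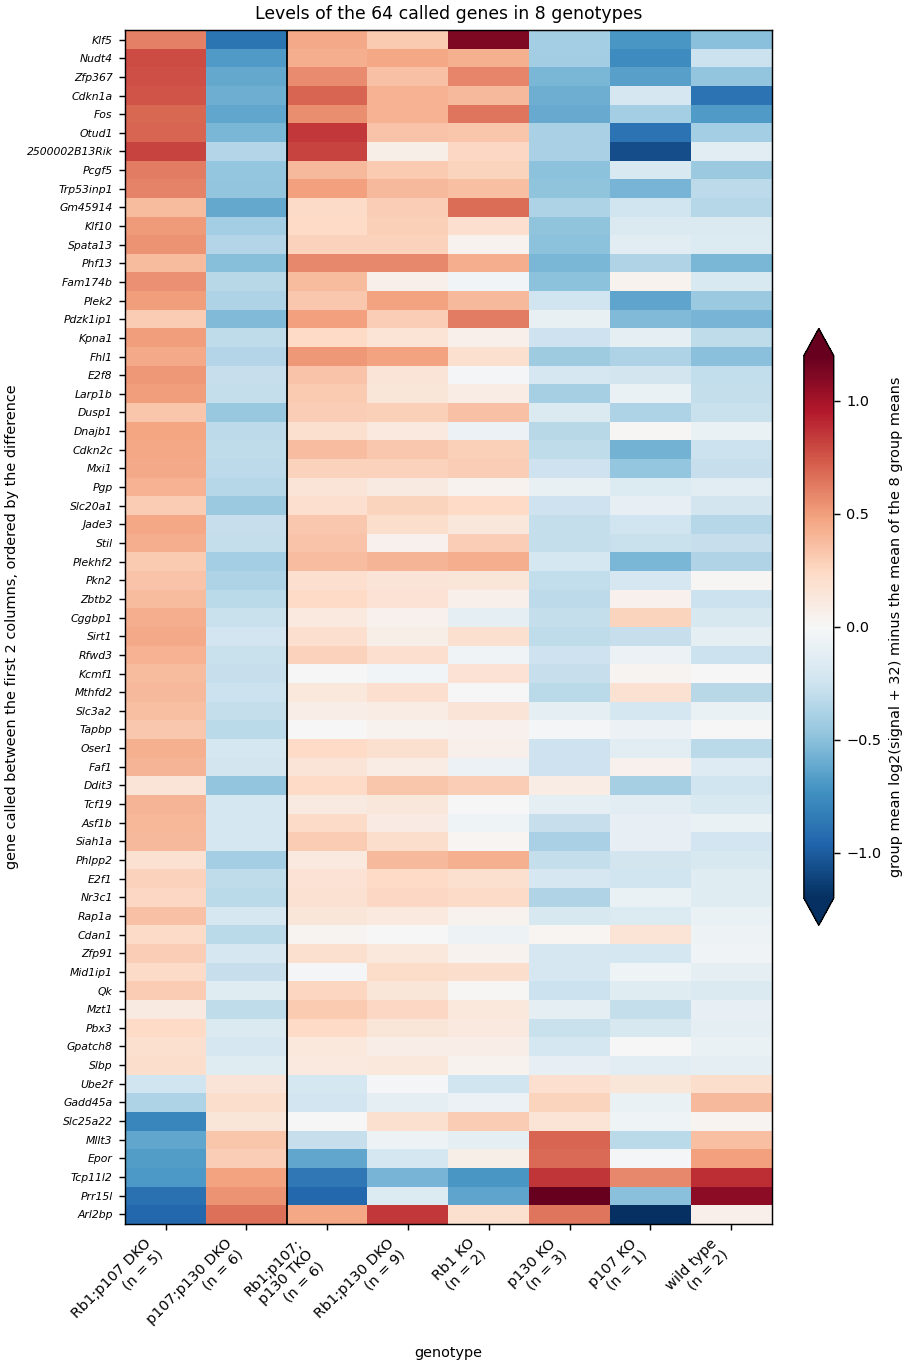
Mean log2(signal + 32) of the 64 called genes (rows, ordered by the difference between the first 2 columns) in the 8 genotypes (columns), as the group mean minus the mean of the 8 group means, red for higher and blue for lower. For 60 of the 64 genes the triple knockout lies nearer to Rb1;p107 DKO, and for 1 of the 64 wild type does.

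Other probe sets of the called genes gave the same direction in most cases. Of the 66 called genes, 35 had another probe set with a mean signal of at least 100, 54 probe sets in all. Of these, 50 had the sign of the brightest one. Dimmer probe sets were left out of this count. Among those left out was the second Rb1 probe set, opposite in direction to the brightest one (59.5 without Rb1 and p107, 23.8 without p107 and p130). The 4 of opposite sign, named after their values were seen, were those of Kcmf1 (-0.08), Nr3c1 (-0.03), Qk (-0.14) and Ube2f (0.12).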

How the data were processed

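Total RNA of whole fetal livers was labelled with biotin in 1 cycle and hybridised to Affymetrix one-colour arrays, per the labels' protocols. The deposited values are intensities, linear MAS5 signals that the authors made in GCOS 1.4, per the submitters' processing notes. The deposited 2% trimmed means of the 11 arrays were 495.7 to 497.5, so they had been scaled to a common level.

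Of 45037 probe sets, 34945 had a single gene symbol in the platform's annotation. Of these, 34741 were matched by gene identifier to the RefSeq gene table (GRCm38.p6), and the rest kept the platform's symbol. The 932 with several symbols and the 9160 with none were not used. Each array's 2% trimmed mean was set to 500 before log2(signal + 32) was taken. The probe set with the highest mean stood for its gene (18193 genes), and 12723 genes that reached 100 on 2 or more arrays were tested. Testing used limma 3.58.1 in R 4.3.3 (lmFit, contrasts.fit, eBayes with trend, two-sided, Benjamini-Hochberg), with 1 mean per genotype over 34 arrays. The steps were tested on simulated data.

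The genotypes, the 24 gene lists and the naming rule were chosen with earlier results of these data known. The rule names the targeted genes, the 12 largest called rises and up to 12 called falls of mean log2 signal 8 or more, the 2 called members of each list with the smallest p (or the 1 member with the smallest p), sex-linked genes, and called genes within 5 Mb of Rb1 or Rbl2. Genes named beside these were named after their values were seen. Array groups came from clustering the log2 differences between the 2 brightest probe sets of 2996 genes with a median of at least 300 (differences held within 2). Same-numbered arrays of the 2 genotypes had correlated deviations of -0.094 to 0.43, and 2 of 5 pairs were best with their own number, so numbers were not taken as pairs. Alternatives were other pseudocounts, filters, normalization, probe set summaries, eBayes settings, array weights, array group, sex and replicate blocks, subsets of arrays, and each array left out. The number of arrays limits the precision.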

Additional observations from a re-analysis of the deposited data

Results flagged for a closer look

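An array stood apart from the rest of its genotype in 11 of 88 groups of signals, over 44 genes in the 2 genotypes. On the log2 scale its gap to the nearest array took more of the group's range than Dixon's critical value allows. That value is passed by chance in about 1 group in 20. The 88 groups share the same 11 arrays and do not count as separate trials, so no excess over chance can be read from the count.

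Array 1 of Rb1;p107 DKO, the array of that genotype in array group 1, accounts for 7 of the 11. It was low for Trp53inp1 (401, with the next array at 824), Spata13 (1143, next 1924), Tcp11l2 (614, next 1374), Mxi1 (3678, next 5082), E2f8 (5560.2, next 8902) and Alb (33237, next 41257), and high for Mllt3 (2047, next 1504). For Trp53inp1, Spata13, Mxi1, E2f8, Alb and Mllt3 its signal lay toward the p107;p130 DKO arrays, and for Tcp11l2 away from them. Without it 194 genes were called in place of 66. Its part in the differences beyond that was not tested.

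The other 4 were a low Gadd45a on array 3 of Rb1;p107 DKO (2129.8, next 2690.2), a low Cdkn1a on array 3 of p107;p130 DKO (129.5, next 220.0), a low Cox6c on array 5 of p107;p130 DKO (12409.5, next 14161) and a high Siah1a on array 1 of p107;p130 DKO (1567, next 1259).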

How the results depend on the processing

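Between the 2 double knockouts 66 genes were called, 0.448% of those tested higher and 0.0707% lower. The numbers of genes behind these values stayed within 1.5 times with other pseudocounts or filters, quantile normalization, averaged probe sets, eBayes with a robust fit or no trend, only the 11 arrays, and a term for sex. With the replicate block 131 genes were called (0.841% higher, 0.189% lower), and 86.0% of them had the same sign in Rb1;p130 DKO minus p130 KO. With array weights 2050 were called (7.06% higher, 9.05% lower), and the same-sign shares were 57.7% in Rb1 KO minus p130 KO and 64.7% in Rb1;p130 DKO minus p130 KO. With array group as a block 0.149% were lower. With array group and sex together, chosen after seeing the data, 0.126% were lower, Rb1 KO minus p130 KO called 6 genes, and 100% of the called genes shared its sign. Within array group 2 the call was made for 108 genes (0.715% higher, 0.134% lower). On the Y-marked arrays alone (2 against 5), also chosen after seeing the data, 1 gene was called, Rb1 (0% higher, 0.00786% lower). Leaving out 1 array gave 37 to 194 called genes, 0.244 to 1.13% higher and 0.0472 to 0.393% lower. It gave same-sign shares of 78.6 to 100% in Rb1 KO minus p130 KO and 86.5 to 98.4% in Rb1;p130 DKO minus p130 KO, and 3 to 4 calls in the first of these. Without arrays 1 to 6 of p107;p130 DKO in turn, 49, 52, 49, 58, 64 and 77 genes were called. The cause of these shifts was not tested, beyond the smaller number of arrays in the subsets. The interaction with p107 gave 0 calls by limma under each alternative it was run for, which leaves out the 11 arrays alone, array group 2, the Y-marked arrays and the left-out p130 KO arrays. No named gene that was called changed sign. Of those not called, Rbl1, Xist and Kdm5d did under some alternatives, as did the medians of several lists near 0. The number of arrays sets the precision: the median 95% interval reached 0.37 on either side.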
